A study of Mus musculus with 10 samples.

Results

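The endoplasmic reticulum (ER) chaperones and the unfolded protein response were followed in 10 mouse livers through 10 genes chosen by name. These were *Hspa5*, *Hsp90b1*, *Pdia4*, *Sdf2l1*, *Creld2*, *Dnajb9*, *Herpud1*, *Xbp1*, *Ern1* and *Atf6*. All 10 were found among the 24052 gene symbols of the count files, and all 10 were among the 11208 genes with at least 1 CPM (counts scaled to library size) in at least 5 livers, which were tested. Liver RNA from 5 wild-type mice and 5 mice with a hepatic deletion of *Ndrg3* (Ndrg3 LKO) was sequenced, with 1 library per liver. The labels give a C57BL/6 background and ad libitum feeding for all mice, and the methods of the study give C57BL/6N for the backcross of the *Ndrg3* line. The Ndrg3 LKO mice were homozygous for an *Ndrg3* allele with exon 4 between loxP sites. They carried Cre recombinase under the albumin promoter, which is active in hepatocytes. Which other liver cells keep the gene is not given in the sources used here. Controls were littermates called wild-type. The last cross described had 1 parent homozygous for the floxed allele, so that each of its pups carries at least 1 floxed allele, and the genotype of each control is not given in the sources used here. The same livers served for a metabolome analysis, for which the study's methods give an age of 8 to 10 weeks and a legend gives 10 to 12 weeks. Figure legends count 4 Ndrg3 LKO livers where 5 are deposited, and which liver was left out there is not given in the sources used here. The comparison asks how the transcripts of ER protein folding differ between livers with and without hepatic NDRG3, a protein of the N-Myc downstream regulated gene family.

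Secreted and membrane proteins fold in the ER, and the liver, which makes most plasma proteins, carries a large folding capacity. When unfolded proteins accumulate, the sensors IRE1α (encoded by *Ern1*), ATF6 and PERK are released from the chaperone BiP (encoded by *Hspa5*) and start the unfolded protein response. IRE1α splices *Xbp1* mRNA so that it encodes an active transcription factor, ATF6 is cut to free a transcription factor of its own, and PERK slows translation and raises ATF4. XBP1 and ATF6 are known to raise genes for chaperones, disulfide exchange and ER-associated degradation. Gene counts do not tell spliced from unspliced *Xbp1* mRNA, so the activity of the sensors was not measured here.

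*Xbp1*, *Dnajb9* and *Herpud1* were lower in Ndrg3 LKO livers, with no overlap between the groups, by 2.19-fold, 2.42-fold and 2.22-fold in the fitted mean. Separate groups were common, with 31.5% of all genes tested showing no overlap, so this count of genes is near the background. *Creld2* fell by 1.34 on the log2 scale with overlapping groups. The central chaperones *Hspa5*, *Hsp90b1*, *Pdia4* and *Sdf2l1* and the sensors *Ern1* and *Atf6* did not pass the test. Thus 4 of the 10 genes were called at an adjusted p under 0.05 by the quasi-likelihood test of edgeR, with p adjusted over all genes by Benjamini-Hochberg, and all 4 were lower. Of all genes tested, 48.6% were called, 25.6% higher and 23.0% lower, so 4 of 10 called was below the background for either direction and 4 of 10 lower was above the background for that direction, without a test of the list. The median log2 fold change of the 10 genes was -0.36, against 0.031 for all genes tested.

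The libraries held 20872262 to 24747870 counts in the wild-type group and 23474693 to 30450057 in the Ndrg3 LKO group. *Ndrg3* itself had 15.9 to 21.9 CPM in wild-type livers and 7.07 to 9.16 CPM in Ndrg3 LKO livers (log2 fold change -1.20, SE 0.13, edgeR adjusted p = 3.87e-05). Ndrg3 LKO replicate 5 stood apart. On the first principal component, which held 68.7% of the variance, it lay at 14.1, against 51.1 to 56.6 for the other 4 Ndrg3 LKO livers and -49.9 to -43.0 for the wild-type livers. The sum of 10 hepatocyte markers was 162698 to 199345 CPM in wild-type livers, 44670 to 57413 in Ndrg3 LKO replicates 1 to 4 and 178085 in replicate 5. *Alb*, with a mean of 94358 CPM in wild-type livers, weighs most in that sum. Of these markers, 8 were lower in Ndrg3 LKO livers and 1, *Apoc3*, was higher. *Hnf4a*, *Apoa1*, *Fga*, *Fgb* and *Trf* were below every wild-type liver in all Ndrg3 LKO livers, replicate 5 included. For *Alb*, *Ttr*, *Apoa2*, *Apoc3* and *Ahsg* the groups overlapped. Without replicate 5, 5 of the 10 ER genes were called, the 4 above and *Atf6* as higher, with 55.6% of all genes called. All 7 macrophage markers were higher in Ndrg3 LKO livers (89.3 to 220 CPM in sum in wild-type, 167 to 485 in Ndrg3 LKO), as were 5 of 6 stellate cell and fibroblast markers (90.2 to 132 against 206 to 270) and 4 of 5 endothelial markers (44.6 to 57.9 against 85.0 to 126). Of 5 biliary markers, 1, *Spp1*, was higher and 1, *Sox9*, lower (38.4 to 71.6 against 50.9 to 219 in sum). Of 5 markers listed for T cells and neutrophils only *Ptprc*, a marker of leukocytes in general, was tested. It was higher (1.96 to 3.13 against 3.17 to 9.14 CPM), with 2.47 to 4.68 against 4.48 to 18.1 CPM for the sum of the 5. *Cd3e*, *Cd3g*, *S100a8* and *S100a9* were not tested. Among 7 plasma cell and B cell markers only *Igj* was tested, and it was higher (0.928 to 4.68 against 3.02 to 39.2 CPM). The sum of the 7 was 1.76 to 5.62 against 3.97 to 42.8 CPM, and *Tnfrsf17* and *Ms4a1* stayed under 1 CPM in every liver. In bulk tissue, fewer cells of a type and less RNA per cell cannot be told apart, and the part of these markers in the results below was not tested.

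Gene coordinates below are those of mm9, the build of the count files, and levels are CPM scaled by edgeR's trimmed mean of M-values (TMM). With scaling by library totals alone, the median over all tested genes moved on the log2 scale from 0.031 to 0.56, and the calls from 2865 higher and 2578 lower to 5821 higher and 1010 lower. *Xbp1*, *Dnajb9* and *Herpud1* were still called as lower with that scaling.

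Promoter sequence was compared first, because ATF6 and XBP1 act through short elements near the start sites of these genes. The ER stress response element (ERSE) is CCAAT, 9 bases of any kind and CCACG, with NF-Y known to bind the CCAAT part and ATF6 or XBP1 the CCACG part. Its second form (ERSE-II) is ATTGG, 1 base and CCACG. RefSeq promoters of build GRCm38.p6, each 250 bases before to 50 bases after a start site, held entries for 9 of the 10 genes. *Atf6* had none. Both strands were searched. ERSE was in 3 of the 9 promoters, and in 39 of all 32851 promoters (0.119%). ERSE-II was in 1 of the 9 and in 12 of all promoters (0.0365%). The XBP1-binding unfolded protein response element was searched only in the form TGACG followed by TGG, which was in 0 of the 9 and in 0.676% of all. Other spellings of that element, of ERSE and of ERSE-II were not searched, so near matches are not counted. CCACG alone was in 8 of the 9 and in 32.8% of all, and CCAAT alone was in 7 of the 9 and in 37.4% of all. Both parts also lie within every ERSE. ERSE-II holds CCACG and, on its other strand, CCAAT. The sites that carry the full elements are shown with 20 bases on each side, read along the gene's strand, with coordinates of that build and with the element in capitals. For *Dnajb9*, which fell but holds no full element in this window, the capitals mark CCACG and CCAAT.
Hspa5, chr2:34772005-34772063, plus strand: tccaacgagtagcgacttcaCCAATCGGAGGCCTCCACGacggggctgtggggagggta
Hsp90b1, chr10:86705513-86705676, minus strand: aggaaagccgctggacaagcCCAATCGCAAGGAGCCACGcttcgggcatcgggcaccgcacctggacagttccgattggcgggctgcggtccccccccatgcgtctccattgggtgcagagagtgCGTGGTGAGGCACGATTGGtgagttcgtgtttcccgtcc
Creld2, chr15:88819500-88819558, plus strand: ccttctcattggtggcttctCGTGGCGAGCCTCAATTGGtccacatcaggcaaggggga
Herpud1, chr8:94386357-94386407, plus strand: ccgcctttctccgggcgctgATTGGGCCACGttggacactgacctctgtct
Dnajb9, chr12:44210059-44210196, minus strand: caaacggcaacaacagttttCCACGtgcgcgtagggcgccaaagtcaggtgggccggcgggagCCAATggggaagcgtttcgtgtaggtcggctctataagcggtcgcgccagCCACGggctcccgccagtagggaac

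The *Hspa5* element in the spelling searched lay 65 to 47 bases before the RefSeq start site. *Hsp90b1* held a pair of ERSE copies, 212 to 194 bases before the start and, on the opposite strand, 107 to 89 bases before it. The *Creld2* element was on the opposite strand, 126 to 108 bases before the start, and the ERSE-II of *Herpud1* was 52 to 42 bases before it. *Dnajb9* had CCACG at 108 to 104 and at 15 to 11 bases before the start and CCAAT at 65 to 61. *Xbp1* held neither CCAAT nor CCACG in its 300 bases. Full elements stood in promoters on both sides of the threshold, with *Creld2* and *Herpud1* among the genes that fell and *Hspa5* and *Hsp90b1* among those not called. *Dnajb9* and *Xbp1* fell and had no full element here in the spellings searched. A match is a description of letters and not a measured binding site.

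**Figure D1:**
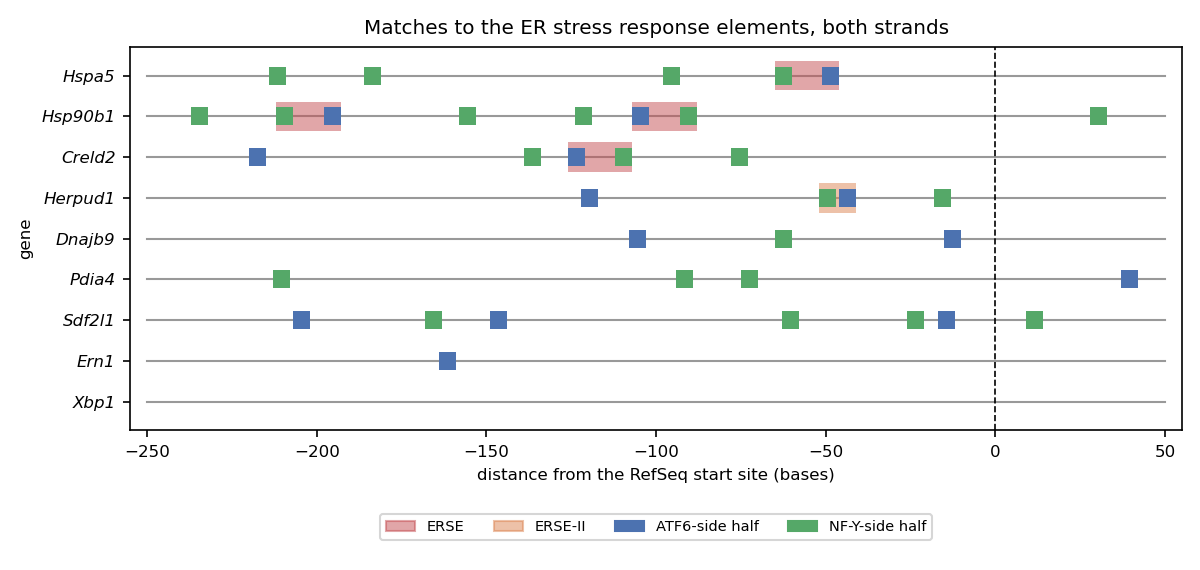
Positions of element matches in the RefSeq promoters of 9 genes, in bases from the start site at 0 on the horizontal axis, with 1 line per gene. Wide pale boxes are ERSE and ERSE-II and squares are their CCAAT and CCACG parts. Full elements are seen in *Hspa5*, *Hsp90b1*, *Creld2* and *Herpud1*, and the *Xbp1* line is empty.

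*Ern1* encodes IRE1α, the kinase and endoribonuclease that splices *Xbp1*, and lies at chr11:106255964-106349166 on the minus strand. It was the least abundant of the 10, with 71 to 595 counts per liver. Its CPM in wild-type replicates 1 to 5 was 9.93, 9.18, 5.12, 18.2 and 10.1. In Ndrg3 LKO replicates 1 to 5 it was 3.54, 13.9, 15.3, 4.05 and 3.35. Replicates 2 and 3 of the Ndrg3 LKO group were within the wild-type range and the other 3 were below every wild-type liver. The group means were 10.5 ± 4.77 and 8.02 ± 6.02 CPM (SD, n = 5 each), with a log2 fold change of -0.39, SE 0.48 and an edgeR adjusted p of 0.526.

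*Atf6* encodes the ER-anchored precursor of the ATF6 transcription factor (chr1:172634588-172797902, minus strand). It was the steadiest of the 10 in wild-type livers, at 81.0, 75.8, 80.8, 91.2 and 86.8 CPM, a coefficient of variation of 7.17%. The Ndrg3 LKO livers had 81.0, 157, 111, 103 and 79.6 CPM. Replicates 2, 3 and 4 were above every wild-type liver, and replicates 1 and 5 were inside the wild-type range. The means were 83.1 ± 5.96 and 106 ± 31.6 CPM, with a log2 fold change of 0.36, SE 0.18 and an edgeR adjusted p of 0.119. The call changed without Ndrg3 LKO replicate 5 (log2 fold change 0.43, edgeR adjusted p = 0.0469) and with library-total scaling (0.92, adjusted p = 0.00600).

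*Xbp1*, the transcription factor whose mRNA IRE1α splices, lies at chr11:5420662-5425896 on the plus strand. Wild-type replicates 1 to 5 had 137, 246, 184, 197 and 211 CPM. Ndrg3 LKO replicates 1 to 5 had 98.8, 70.5, 60.4, 96.7 and 119 CPM. The groups did not overlap, as for 31.5% of all genes tested. The means were 195 ± 39.6 and 89.1 ± 23.6 CPM, and *Xbp1* fell by 1.13 on the log2 scale (SE 0.21, edgeR adjusted p = 0.00111). Without Ndrg3 LKO replicate 5, the highest of its group, the fall was 1.27 (log2 fold change -1.27, adjusted p = 2.50e-04).

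*Dnajb9* encodes ERdj4, a J-domain co-chaperone of BiP that is known as a target of XBP1 and as a repressor of IRE1α (chr12:45306884-45311055, minus strand). Its wild-type levels were 55.6, 71.2, 64.5, 86.4 and 71.4 CPM. In the Ndrg3 LKO livers they were 26.0, 31.5, 24.3, 24.5 and 38.0 CPM. Every Ndrg3 LKO liver was below every wild-type liver, and the spread within the Ndrg3 LKO group, a coefficient of variation of 20.4%, was the smallest of the 10 genes there. With means of 69.8 ± 11.3 and 28.9 ± 5.88 CPM, *Dnajb9* fell by 1.28 on the log2 scale (SE 0.16, edgeR adjusted p = 1.10e-04), the smallest adjusted p of the 10.

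*Herpud1* encodes HERP, an ER membrane protein of the degradation complex that moves misfolded proteins to the cytosol (chr8:96910338-96919277, plus strand). It had 875, 1093, 903, 723 and 951 CPM in wild-type replicates 1 to 5. It had 379, 309, 249, 440 and 667 CPM in Ndrg3 LKO replicates 1 to 5. Replicate 5 of the Ndrg3 LKO group came nearest to the wild-type livers but was still below the lowest of them. The means were 909 ± 134 and 409 ± 161 CPM, a log2 fold change of -1.15 (SE 0.25, edgeR adjusted p = 0.00273), or -1.41 (adjusted p = 8.33e-05) without replicate 5. The annotation has a gene on the opposite strand, *Gm15890*, within its span. The strand setting of the counting is not given in the sources used here.

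*Hspa5* encodes BiP, the main HSP70 chaperone of the ER lumen (chr2:34627490-34632051, plus strand). The wild-type livers had 645, 1017, 949, 761 and 988 CPM. The Ndrg3 LKO livers had 803, 447, 1068, 562 and 645 CPM. The highest and the lowest of all 10 livers were both Ndrg3 LKO, replicates 3 and 2. Means were 872 ± 162 and 705 ± 241 CPM, and the log2 fold change of -0.31 had an SE of 0.24 and an edgeR adjusted p of 0.301.

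*Hsp90b1* encodes GRP94, the HSP90 chaperone of the ER lumen (chr10:86152954-86168254, minus strand). It was at 854, 1478, 1300, 810 and 1331 CPM in wild-type livers and at 1061, 379, 1399, 641 and 1076 CPM in Ndrg3 LKO livers. Only Ndrg3 LKO replicates 2 and 4 were below the wild-type range. The log2 fold change was -0.34 (SE 0.32, edgeR adjusted p = 0.396), with means of 1155 ± 303 and 911 ± 401 CPM. The annotation places *1810014B01Rik* on the opposite strand within its span, and *Gm15344* and *AC152453.1* on the same strand.

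*Pdia4* encodes ERp72, a protein disulfide isomerase (chr6:47746141-47763511, minus strand). Its levels were 122, 174, 115, 119 and 154 CPM in wild-type and 136, 75.6, 197, 85.4 and 101 CPM in Ndrg3 LKO replicates 1 to 5. As for *Hspa5*, Ndrg3 LKO replicate 3 was the highest and replicate 2 the lowest of all 10 livers. The means of 137 ± 25.9 and 119 ± 49.1 CPM gave a log2 fold change of -0.20 (SE 0.25, edgeR adjusted p = 0.520).

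*Sdf2l1* encodes a small ER lumen protein that works with BiP and its J-domain partners (chr16:17130231-17132476, minus strand). Wild-type replicates had 15.2, 34.1, 15.1, 14.3 and 34.9 CPM and Ndrg3 LKO replicates 27.4, 6.47, 34.0, 13.8 and 15.8 CPM. Wild-type replicates 2 and 5 stood above the other 3 of their group, as Ndrg3 LKO replicates 1 and 3 did in theirs. No difference was detected between means of 22.7 ± 10.8 and 19.5 ± 11.1 CPM (log2 fold change -0.22, SE 0.42, edgeR adjusted p = 0.684).

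*Creld2* encodes a cysteine-rich ER protein with disulfide isomerase activity that is known as an ER stress marker (chr15:88650076-88657111, plus strand). It had 40.0, 165, 74.3, 48.9 and 162 CPM in wild-type livers, a coefficient of variation of 62.2%. It had 43.0, 14.2, 74.2, 26.3 and 35.8 CPM in Ndrg3 LKO livers. Replicates 1 and 3 of the Ndrg3 LKO group were inside the wild-type range and the other 3 were below it. The means were 97.9 ± 60.9 and 38.7 ± 22.6 CPM, and *Creld2* fell by 1.34 on the log2 scale (SE 0.48, edgeR adjusted p = 0.0358). The call was lost without wild-type replicate 2 (log2 fold change -1.09, adjusted p = 0.0898) or 5 (-1.10, 0.0873), without Ndrg3 LKO replicate 1 (-1.38, 0.0603), 2 (-1.13, 0.0611) or 4 (-1.23, 0.0810), and with library-total scaling (-0.79, 0.156).

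**Figure D2:**
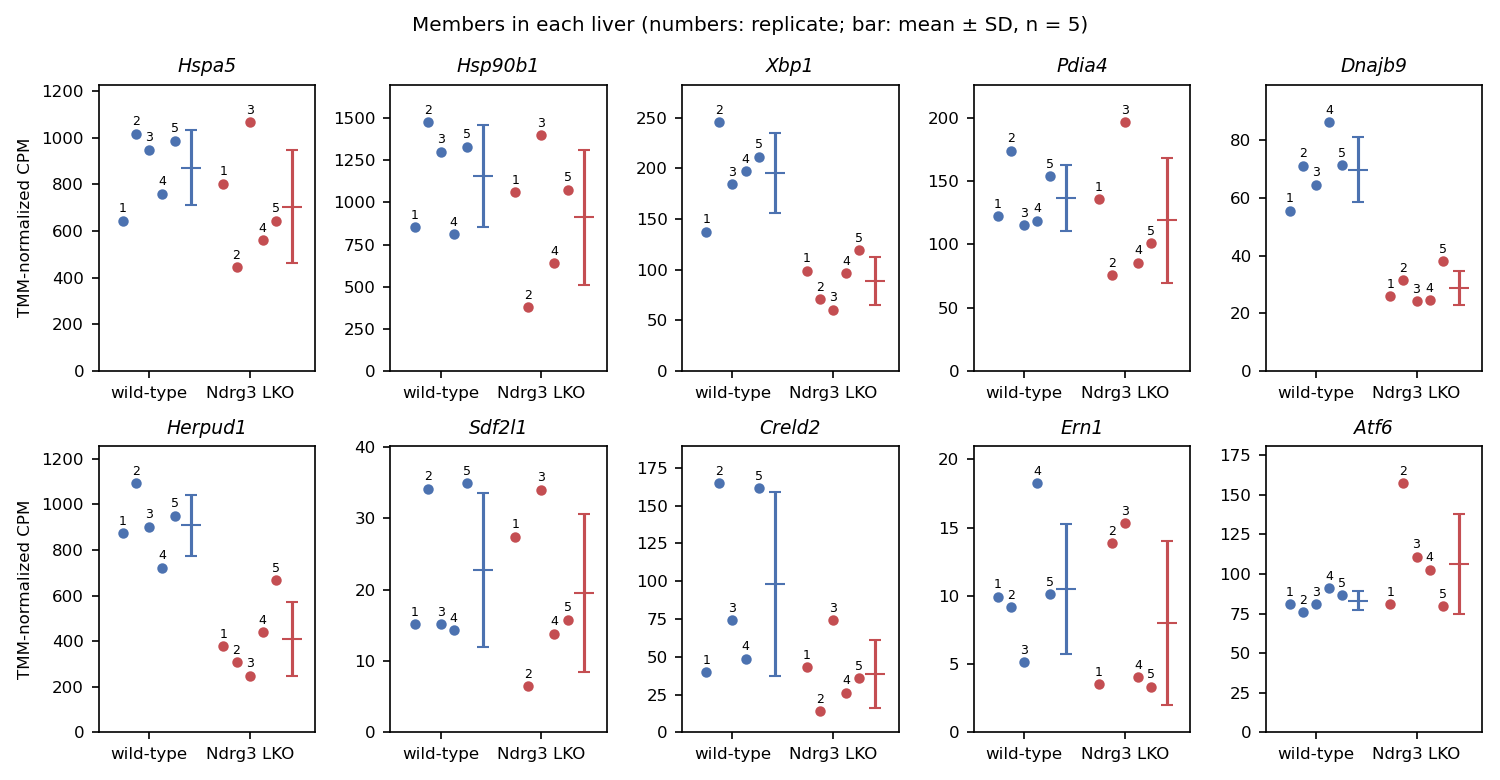
TMM-normalized CPM (vertical axis, linear, from 0, with its own scale in each panel) of the 10 genes in each liver. Points are livers labelled with the replicate number, blue for wild-type and red for Ndrg3 LKO, and bars are the mean ± SD of 5 livers. The groups are separate for *Xbp1*, *Dnajb9* and *Herpud1*, as for 31.5% of all genes tested, and overlap for the other 7 genes.

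**Figure D3:**
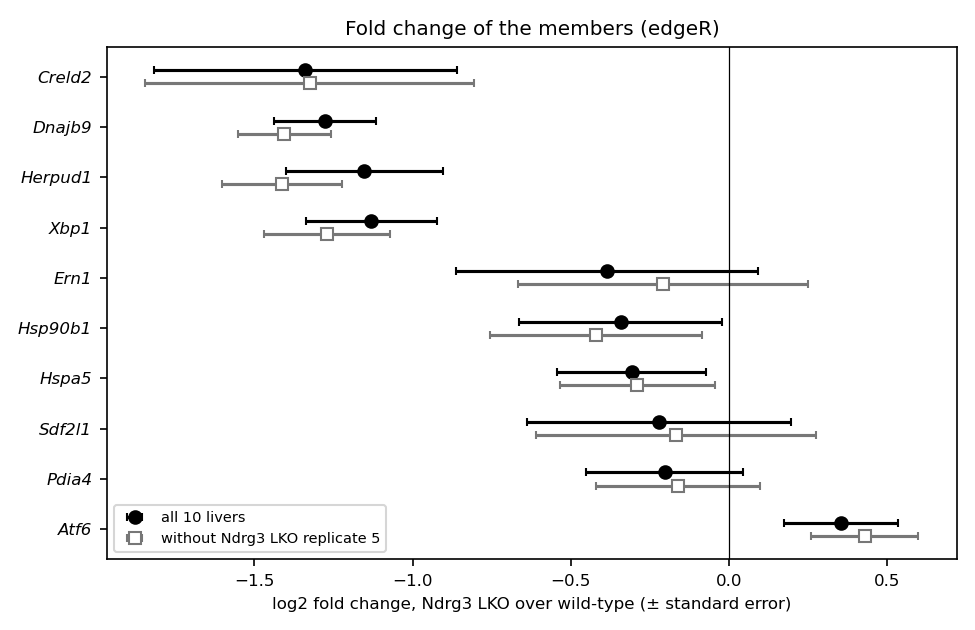
Log2 fold changes of the 10 genes (Ndrg3 LKO over wild-type, edgeR, horizontal axis) with their standard errors, for all 10 livers (filled circles) and without Ndrg3 LKO replicate 5 (open squares). *Creld2*, *Dnajb9*, *Herpud1* and *Xbp1* lie between -1.34 and -1.13 with all livers, and the other 6 genes between -0.39 and 0.36. With library-total scaling *Hspa5*, *Hsp90b1*, *Pdia4*, *Sdf2l1* and *Ern1* turn to values above 0.

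The order of the livers was not the same for all 10 genes. Within the Ndrg3 LKO group, *Hspa5*, *Hsp90b1*, *Pdia4*, *Sdf2l1* and *Creld2* were all highest in replicate 3 and all lowest in replicate 2. *Xbp1*, *Dnajb9* and *Herpud1* were all lowest in replicate 3 and all highest in replicate 5. On a log2(CPM + 1) scale relative to the wild-type mean, replicate 3 was at 0.31 for *Hspa5* and 0.54 for *Pdia4* but at -1.65 for *Xbp1*, -1.47 for *Dnajb9* and -1.85 for *Herpud1*. *Atf6* ran the other way in replicate 2, at 0.91, where *Creld2* was at -2.46 and *Hsp90b1* at -1.56.

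**Figure D4:**
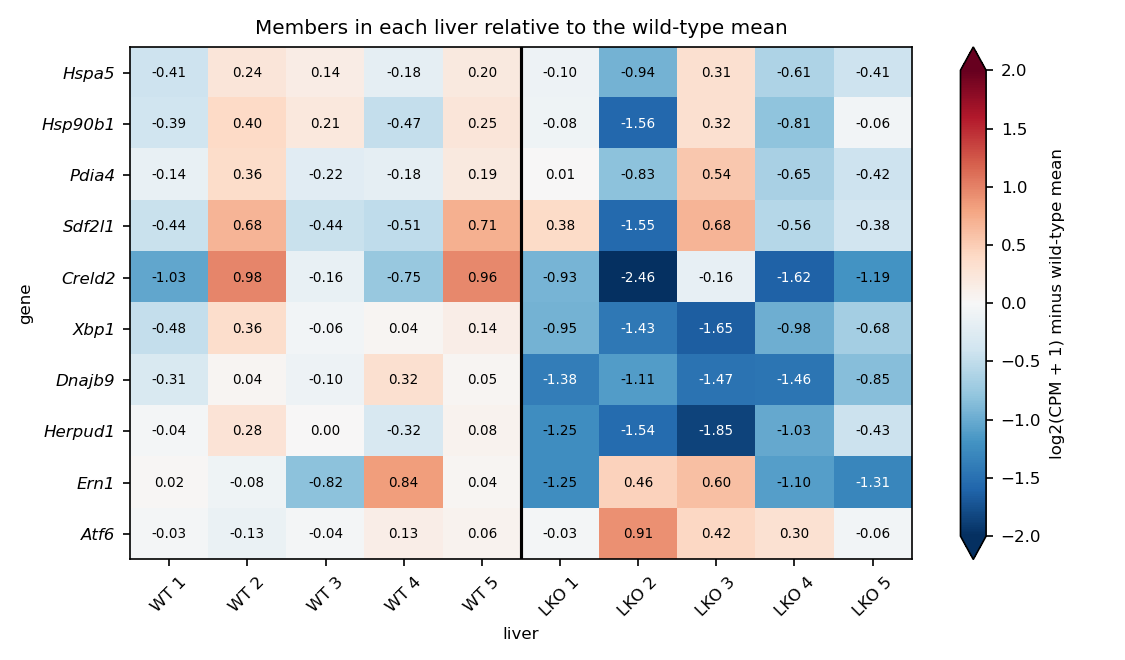
Difference of log2(CPM + 1) from the wild-type mean (color and printed value) for the 10 genes in rows and the 10 livers in columns, with WT for wild-type, LKO for Ndrg3 LKO and a line between the groups. Rows of *Xbp1*, *Dnajb9* and *Herpud1* are below 0 in all 5 Ndrg3 LKO livers, whereas rows of *Hspa5*, *Hsp90b1*, *Pdia4* and *Sdf2l1* are above 0 in replicate 3 and lowest in replicate 2.

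The Ndrg3 LKO livers with the highest levels of *Hspa5*, *Pdia4*, *Sdf2l1* and *Creld2* in their group, replicates 3 and 1, also had the highest sums of plasma cell and B cell markers, 40.2 and 42.8 CPM against 3.97 to 9.52 in the other 3, and of macrophage markers, 475 and 485 CPM against 167 to 277. Their biliary sums were the highest too, 142 and 219 CPM against 50.9 to 84.9. *Spp1*, with means of 41.9 CPM in wild-type and 101 CPM in Ndrg3 LKO livers, weighs most in the biliary sums of both groups. *Krt19*, *Krt7*, *Epcam* and *Sox9* had means of 1.52 to 2.73 CPM in Ndrg3 LKO livers. The sum of stellate cell and fibroblast markers was also highest in replicates 3 and 1, 266 and 270 CPM against 206 to 249. *Dcn*, with a mean of 181 CPM in Ndrg3 LKO livers, weighs most in that sum. Within the Ndrg3 LKO group, *Col1a1*, *Col3a1*, *Pdgfrb* and *Acta2* were highest in replicate 5, and *Dcn* and *Lrat* were lowest in it. Endothelial markers had 109 and 126 CPM in replicates 3 and 1 against 85.0 to 100. T cell and neutrophil markers and hepatocyte markers were highest in replicate 5 instead. In the wild-type group, replicates 2 and 5, which were highest for *Hspa5*, *Hsp90b1*, *Pdia4*, *Sdf2l1* and *Creld2*, had 220 and 141 CPM of macrophage markers, against 89.3 to 118 CPM in the other 3. Their biliary sums, at 71.6 and 54.3 CPM, were also above the 38.4 to 44.0 CPM of the other 3. Their plasma cell and B cell markers, at 1.76 and 2.32 CPM, were not higher than the 2.02 to 5.62 CPM of the other 3, and replicate 2 was the lowest of its group. Stellate cell and fibroblast markers and endothelial markers were highest in other wild-type livers. The part of these cells in the chaperone levels was not tested.

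Because *Hspa5* was read in the same libraries, its counts were used as a within-liver reference that no library scaling can move, a comparison chosen after the data were seen. The ratio of *Xbp1* to *Hspa5* counts was 0.194 to 0.259 in wild-type livers and 0.0565 to 0.185 in Ndrg3 LKO livers. The groups did not overlap, and the mean log2 ratio was lower by 0.80 in Ndrg3 LKO (difference -0.80, exact permutation test over 252 splits, two-sided p = 0.00794, the smallest this design allows, and 0.0714 after Benjamini-Hochberg adjustment over 9 ratios). The ratios of *Dnajb9* (difference -0.93), *Herpud1* (-0.87) and *Creld2* (-0.95) to *Hspa5* gave exact p values of 0.0238, 0.0317 and 0.0238, each 0.0714 after adjustment. The mean log2 ratios of *Pdia4* and *Hsp90b1* to *Hspa5* differed between the groups by 0.078 and -0.087, with exact p values of 0.611 and 0.619 and 0.741 after adjustment. For *Sdf2l1* the difference was 0.036 (exact p = 0.913, the same after adjustment), for *Ern1* -0.27 (exact p = 0.659, 0.741 after adjustment) and for *Atf6* 0.66 (exact p = 0.103, 0.186 after adjustment). No ratio passed an adjusted p of 0.05 with all 10 livers.

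Per kilobase of annotated exon, the order of levels in wild-type livers began with *Herpud1* (390 ± 57.2 CPM per kb), *Hsp90b1* (286 ± 75.0) and *Hspa5* (248 ± 46.0). These 3 overlapped in their ranges and lay above the rest. *Creld2* (71.8 ± 44.7), *Xbp1* (60.1 ± 12.2) and *Pdia4* (55.1 ± 10.4) overlapped as well, followed by *Dnajb9* (37.4 ± 6.04) and *Sdf2l1* (20.5 ± 9.71), which overlapped each other. *Atf6* (11.1 ± 0.799) and *Ern1* (1.29 ± 0.584) were each separate from their neighbours. In Ndrg3 LKO livers, *Herpud1*, at 175 ± 69.1 CPM per kb, came behind *Hsp90b1* (226 ± 99.6) and *Hspa5* (201 ± 68.6), and *Xbp1* (27.4 ± 7.27) came behind *Pdia4* (47.9 ± 19.8) and *Creld2* (28.4 ± 16.5). *Dnajb9* was at 15.5 ± 3.15 CPM per kb there, beside *Sdf2l1* at 17.6 ± 9.98 and *Atf6* at 14.2 ± 4.23, with *Ern1* at 0.981 ± 0.737.

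The genes whose profile over the 10 livers was nearest to *Hspa5* were ranked by the root mean square difference of gene-centred log2(CPM + 1), as a description. Outside the 10 genes, *Dnajb11*, a J-domain co-chaperone of BiP, was nearest at 0.119. Its levels were 82.1 to 147 CPM in wild-type and 61.9 to 135 CPM in Ndrg3 LKO livers. Next came *Slc39a6*, a zinc transporter, at 0.196, and *Papss1*, which makes the sulfate donor PAPS, at 0.204. They were followed by *Tmed9*, a cargo receptor of early secretory transport, at 0.205, and *P4hb*, the founding protein disulfide isomerase, at 0.209. None of these 5 passed the test with all 10 livers (edgeR adjusted p from 0.121 to 0.330). *Slc39a6* did so without wild-type replicate 1 (log2 fold change -0.62, adjusted p = 0.0339) and with quantile normalization and limma (-0.47, 0.0480), and *Papss1* without Ndrg3 LKO replicate 3 (-0.61, 0.0403). Among the 10 genes, *Pdia4* (0.169) ranked 2nd and *Hsp90b1* (0.254) 25th of 11207 other genes, *Sdf2l1* ranked 1507th, and *Xbp1*, *Dnajb9*, *Herpud1*, *Creld2*, *Ern1* and *Atf6* ranked between 7243rd and 9858th. The measure also counts how wide the livers spread and how far the groups differ, so a low rank need not mean another order of livers. *Creld2*, at rank 8634, had the same order of livers as *Hspa5* within each group.

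The wider pathway was read through 7 lists. Splits of calls with library-total scaling are given beside each, since that scaling moved the calls toward higher in all 7. Of all genes tested, 25.6% were higher and 23.0% lower with TMM, and 51.9% and 9.01% with library-total scaling. With TMM the share called lower was 36.4% for ER-associated degradation, 35.7% for the further ER lumen chaperones, 27.3% for the genes downstream of PERK, 25.0% for ER export and retrieval, 24.0% for protein entry, 14.3% for the disulfide exchange enzymes, beside 2 of 10 sensors. The share called higher was 27.3% downstream of PERK, 24.0% for protein entry and 14.3% or less in the other 5 lists. None of these shares was tested against the background. Of 12 listed sensors and transducers, 10 were tested. None was higher, and 2 were lower, *Creb3l3*, a liver ER-anchored transcription factor (log2 fold change -0.46, edgeR adjusted p = 0.0377), and *Mbtps1*, the site-1 protease that cuts ATF6 (-0.43, 0.00951). The *Creb3l3* call was lost without wild-type replicate 1, 2 or 5 or Ndrg3 LKO replicate 1, 2 or 3 (log2 fold change -0.48 to -0.41, edgeR adjusted p 0.0523 to 0.0872). It was also lost with upper-quartile scaling (-0.39, 0.0681), quantile normalization and limma (-0.18, 0.356) and a filter at a mean of 5 CPM (-0.41, 0.0577). Both turn to values above 0 with library-total scaling (0.081 and 0.088), where 6 genes of the list were higher and 0 lower. The median was 0.014. *Eif2ak3*, which encodes PERK, had 13.5 CPM in wild-type and 17.8 CPM in Ndrg3 LKO livers on average (log2 fold change 0.40, adjusted p = 0.223), a gene named after its value was seen.

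Of 14 further chaperones and folding factors of the ER lumen, 2 were higher and 5 lower (4 and 1 with library-total scaling), with a median log2 fold change of -0.34. *Dnajc10*, a J-domain disulfide reductase, rose by 0.86 on the log2 scale (edgeR adjusted p = 0.00660), and *Sil1*, the nucleotide exchange factor of BiP, rose by 0.45 (adjusted p = 0.0197). *Hspa13*, a microsomal HSP70, fell from 34.6 to 17.4 CPM (log2 fold change -0.99, edgeR adjusted p = 9.81e-05), with separate groups. *Hyou1*, the large HSP70 relative that also serves BiP as exchange factor, fell by 0.96 (adjusted p = 0.0182), and *Uggt1*, the glucosyltransferase that checks glycoprotein folding, by 0.70 (adjusted p = 0.00104). These last 2 calls were lost with library-total scaling.

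Among 14 disulfide exchange enzymes 1 was higher and 2 were lower (6 and 1 with library-total scaling), with a median of -0.29. *Pdia5*, a protein disulfide isomerase, fell from 100 to 26.5 CPM on average (log2 fold change -1.93, edgeR adjusted p = 7.58e-04), and no Ndrg3 LKO liver (12.3 to 50.7 CPM) reached the wild-type range (75.9 to 133). *Ero1lb*, an oxidase that recharges these isomerases, fell by 1.14 (adjusted p = 0.00439), a call lost with library-total scaling (adjusted p = 0.113). *Txndc12*, a thioredoxin-like ER protein, rose from 30.5 to 54.0 CPM (log2 fold change 0.82, adjusted p = 7.77e-05).

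ER-associated degradation had 8 of 22 genes lower and 1 higher, and with library-total scaling 2 lower and 9 higher. The median was -0.19. *Syvn1*, the ubiquitin ligase HRD1 (log2 fold change -0.99, edgeR adjusted p = 0.00143), *Edem1*, which delivers misfolded glycoproteins (-0.94, 0.00625), and *Herpud2*, the relative of *Herpud1* (-0.82, 0.00194), had the largest falls among the called. The *Herpud2* call was lost with library-total scaling (adjusted p = 0.0886). *Ube2g2*, a ubiquitin-conjugating enzyme, rose by 0.33 (adjusted p = 0.0396), a call lost without any 1 of 8 livers, all but wild-type replicate 2 and Ndrg3 LKO replicate 2 (log2 fold change 0.24 to 0.36, adjusted p 0.0505 to 0.116) and with no filter on low counts (0.30, 0.0995). For *Syvn1* and *Edem1* the falls without Ndrg3 LKO replicate 5 were larger, with log2 fold changes of -1.14 and -1.17.

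In protein entry and early processing (translocation, signal peptidase and oligosaccharyltransferase), 6 of 25 genes were higher and 6 lower (14 and 1 with library-total scaling), with a median of -0.0010. *Tram1*, a translocon partner, fell from 147 to 73.2 CPM on average (edgeR adjusted p = 0.00690). *Ssr4*, of the translocon-associated complex, fell by 0.57 (adjusted p = 0.0116) and *Stt3a*, the catalytic subunit of the co-translational oligosaccharyltransferase, by 0.55 (adjusted p = 0.00677). *Stt3b*, the catalytic subunit of the other complex, rose by 0.49 (adjusted p = 0.00462), *Spcs2* of the signal peptidase by 0.58 (adjusted p = 0.00667) and *Srprb* of the signal recognition particle receptor by 0.59 (adjusted p = 0.0196). The *Srprb* call was lost without wild-type replicate 1 or 3 or Ndrg3 LKO replicate 3 (log2 fold change 0.47 to 0.52, adjusted p 0.0515 to 0.0567). The 2 catalytic subunits thus lay on opposite sides, with *Stt3a* at 88.8 and 60.7 CPM and *Stt3b* at 81.4 and 114 CPM in wild-type and Ndrg3 LKO livers. The *Stt3a* and *Ssr4* calls were lost with library-total scaling (edgeR adjusted p = 0.796 and 0.677).

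Of 13 listed ER export and retrieval genes, 12 were tested, 1 was higher and 3 were lower (5 and 1 with library-total scaling), with a median of -0.10. *Sec24d*, a cargo adaptor of the COPII coat, fell 4.90-fold, from 80.2 ± 14.0 to 16.4 ± 8.20 CPM (log2 fold change -2.29, SE 0.28, edgeR adjusted p = 8.00e-05). *Sec23a* and *Sec23b*, its coat partners, fell by 0.79 and 0.65 (log2 fold changes -0.79 and -0.65, adjusted p = 0.00124 and 0.00259), and both calls were lost with library-total scaling. *Mcfd2*, part of the cargo receptor for coagulation factors, rose by 0.83 (adjusted p = 9.97e-04), and its groups were separate.

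Of 11 genes downstream of PERK, ATF4 and CHOP, 3 were higher and 3 lower (5 and 1 with library-total scaling), with a median of -0.21. *Nupr1*, a stress-induced chromatin protein, rose from 0.756 to 18.9 CPM (log2 fold change 4.66, edgeR adjusted p = 6.20e-06) and *Asns*, asparagine synthetase, from 1.07 to 3.99 CPM in wild-type to 27.2 to 63.0 CPM in Ndrg3 LKO livers (log2 fold change 4.10, adjusted p = 1.03e-05). *Ppp1r15b* and *Ppp1r15a*, the regulatory subunits that restore translation after PERK acts, fell by 0.76 and 0.67 (adjusted p = 0.00205 and 0.0147), calls lost with library-total scaling. The other called genes were low in level and are named after their values were seen. *Atf3* rose from 2.64 to 8.68 CPM (adjusted p = 0.00210) and *Chac1* fell from 4.57 to 0.923 CPM (adjusted p = 0.00525). *Atf4* itself had a log2 fold change of -0.40 (adjusted p = 0.121) and *Ddit3*, which encodes CHOP, one of 0.47 (adjusted p = 0.0604).

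**Figure D5:**
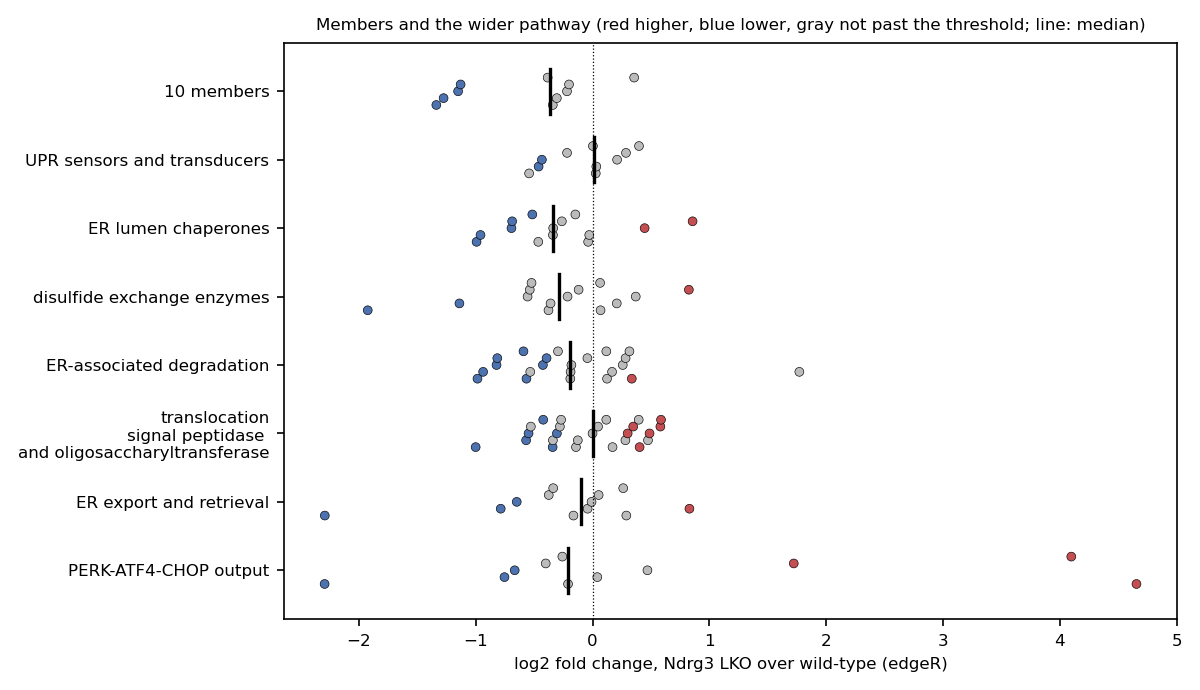
Log2 fold changes (Ndrg3 LKO over wild-type, edgeR with TMM, horizontal axis) of the 10 genes and of the tested genes of 7 wider lists in rows. Red points passed the threshold as higher, blue as lower and gray points did not pass; vertical bars are list medians, which lie between -0.36 and 0.014. With library-total scaling all 8 medians are above 0.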

How the data were processed

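The deposited files hold raw read counts per gene symbol, 1 file per liver, although their names carry the word CPM: all values are whole numbers that sum to different library totals. Per the study's methods, the authors mapped stranded, paired-end mRNA reads to mm9 and counted genes with the counting module of STAR. The methods give STAR v.2.5.1 and the submitters' processing notes STAR 2.7.3a, beside bcl2fastq, Trim Galore 0.6.4 and Cufflinks 2.2.1. The gene annotation and strand setting of the counting are not given in the sources used here.

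The 10 genes and the wider lists were chosen with earlier results of these data known. The tested genes, which reached 1 CPM in 5 or more livers, went into edgeR 4.0.16 (R 4.3.3; TMM library sizes, glmQLFit and glmQLFTest, no covariate), adjusted by Benjamini-Hochberg over 11208 genes at 0.05. All 24052 symbols were read, of which 6306 had 0 counts in every liver. The depth gives a floor of 3 counts between 0.0727 and 0.179 CPM. In counts simulated for these 11208 genes, with changes of 1 on the log2 scale in 200 of them, the test was checked before use. It recovered 129 of the 200 changes with 6 false calls, so changes of that size can be missed. Named were the 10 genes, in each list the 3 called genes that rose most and the 3 that fell most (mean of at least 10 CPM in the higher group), and the 5 genes nearest to *Hspa5*. The file columns hold no samples of other series. Replicates are separate livers. The 20 pairs of libraries within groups differed by more than sampling noise (chi-square per degree of freedom 27.2 to 543). Alternatives used DESeq2 1.42.0 and limma 3.58.1, other scalings and filters, a replicate block and each liver left out. Levels per kb used the union of exons in GENCODE vM1 (mm9), and promoters were RefSeq windows of GRCm38.p6. The windows of the 9 genes with an entry each matched mm9 once, and the other windows were not compared with mm9.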

Additional observations from a re-analysis of the deposited data

Results flagged for a closer look

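In each group of 5 livers the gap between the highest or lowest liver and its nearest neighbour was divided by the range of the group and compared with Dixon's critical value of 0.71. Of 88 groups of 44 genes, 4 passed, where chance flags about 1 in 20 groups. None of the 20 groups of the 10 ER genes passed. *Hyou1* was at 135 CPM in Ndrg3 LKO replicate 3, against 48.4 to 67.8 CPM in the other 4 and 97.5 to 180 CPM in wild-type livers. That liver was also the highest of its group for *Hspa5*, *Hsp90b1*, *Pdia4*, *Sdf2l1* and *Creld2*. *Sec24d* was at 30.8 CPM in Ndrg3 LKO replicate 5, against 10.3 to 14.4 CPM in the other 4. *Sec23b* was at 46.5 CPM in wild-type replicate 4, against 32.7 to 35.0 CPM. *Slc39a6* was at 2.75 CPM in wild-type replicate 1, against 4.73 to 5.53 CPM.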

How the results depend on the processing

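Across 19 alternatives, *Xbp1* (log2 fold change -1.27 to -0.64), *Dnajb9* (-1.41 to -0.78) and *Herpud1* (-1.41 to -0.68) kept their direction and their call. *Creld2* kept its direction (-1.71 to -0.79) but lost the call in 9 of them (adjusted p over all 19, by edgeR, DESeq2 or limma, 0.00769 to 0.156), among them quantile normalization with limma (adjusted p = 0.0549), the replicate block (0.0890) and a threshold of 0.01. Of 190 values of the 10 genes, 171 kept direction and side of the threshold, 9 lost and 2 gained the call, and 8 changed sign. The cause of these changes was not tested. With library-total scaling, log2 fold changes turned positive for *Hspa5* (0.23), *Hsp90b1* (0.17), *Pdia4* (0.34), *Sdf2l1* (0.33), *Ern1* (0.20), *Creb3l3* (0.081), *Mbtps1* (0.088), *Dnajb11* (0.27), *Slc39a6* (0.052), *Papss1* (0.10), *Tmed9* (0.24) and *P4hb* (0.15). Relative to the median of all genes with that scaling (0.56) the first 5 were at -0.33, -0.39, -0.22, -0.23 and -0.36. With quantile normalization and limma *Hspa5* (0.035), *Hsp90b1* (0.024) and *P4hb* (0.31) turned, and *Sdf2l1* ranged from -0.52 to 0.0029 with a liver left out, above 0 without Ndrg3 LKO replicate 2.

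Of the sensors and transducers, 6 were called with library-total scaling, 1 with upper-quartile scaling, 1 with a mean of at least 5 CPM, 1 at a threshold of 0.01 and 1 to 3 with a liver left out. Of the disulfide exchange enzymes, 7 were called with library-total scaling. Of the translocation, signal peptidase and oligosaccharyltransferase genes, 4 were called at 0.01 and 6 to 13 with a liver left out. At 0.01, 3543 genes, 4 ER lumen chaperones and 5 genes of ER-associated degradation were called. Leaving out each liver gave 3 to 5 of the 10 genes called and 4703 to 6360 of all genes.

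With a liver left out, the difference in log2 ratio to *Hspa5* ranged from -0.93 to -0.50 for *Xbp1* and from -1.12 to -0.71 for *Dnajb9*. It ranged from -1.08 to -0.55 for *Herpud1*, from -1.11 to -0.76 for *Creld2* and from 0.36 to 0.81 for *Atf6*. The smallest falls of *Xbp1*, *Dnajb9* and *Herpud1* came without Ndrg3 LKO replicate 3, the highest liver for *Hspa5*. The difference ranged from -0.014 to 0.15 for *Pdia4*, from -0.11 to 0.23 for *Sdf2l1*, from -0.70 to 0.0073 for *Ern1* and from -0.20 to 0.047 for *Hsp90b1*. Its sign changed for *Pdia4* without wild-type replicate 3, for *Sdf2l1* without wild-type replicate 3 or 4 or Ndrg3 LKO replicate 1 or 3, for *Ern1* without wild-type replicate 4 or Ndrg3 LKO replicate 1 and for *Hsp90b1* without Ndrg3 LKO replicate 2. With a liver left out the groups are unequal, and the p of an exact permutation test then depends on how both tails are counted. As computed here, that test gave *Xbp1* an adjusted p of 0.0357 without Ndrg3 LKO replicate 2 or 5. The adjusted p was also 0.0357 for *Dnajb9* without Ndrg3 LKO replicate 2 and for *Herpud1* without Ndrg3 LKO replicate 5. Other ways of counting the tails were not tested, so these values do not decide whether any ratio passes.

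The labels number the livers 1 to 5 in both groups, but nothing says that a number pairs 2 mice. Livers with the same number deviated from the 2 group means with correlations of -0.36, -0.27, -0.31, -0.18 and 0.036, and 0 of 5 wild-type livers matched best with their own number. A fit with the replicate block called 4412 genes, 3 of the 10 genes, 0 sensors and transducers and 5 translocation genes. Of the named genes outside the 10, *Creb3l3* (log2 fold change -0.47), *Mbtps1* (adjusted p = 0.0528), *Sil1* (0.0753), *Ube2g2* (0.0938) and *Srprb* (0.0598) lost the call under that block.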
